A study of Mus musculus with 6 samples.

Results

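The genes described here encode the machinery that makes ribosomes in the nucleolus. The list holds 41 of the 54532 genes in the deposited count table, chosen by symbol from what their products are known to do: RNA polymerase I transcription, processing and modification of ribosomal RNA (rRNA), and assembly of both ribosomal subunits. All 41 symbols were found in the table, and 40 of them passed the filter on low read numbers and were tested. The remaining gene, Rrp9, which encodes a protein of the U3 small nucleolar ribonucleoprotein, had between 0 and 9 reads per library.

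Ribosomes are built from rRNA that RNA polymerase I transcribes as one long precursor. Small nucleolar ribonucleoproteins (snoRNPs) modify and help to cut that precursor, and large processome complexes fold it around ribosomal proteins before the small and large subunits are exported separately to the cytoplasm. In male germ cells, rRNA synthesis is known to be low in early meiotic prophase and to rise again at pachytene.

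RNA was measured in sorted leptotene/zygotene spermatocytes, cells in early meiotic prophase, from testes of mice at 12 days post partum (dpp). There were 3 Control libraries, whose genotype is given as wild type, and 3 libraries of Eef1g-cKO, in which a floxed Eef1g allele on the C57BL/6J background was deleted by the Stra8-GFPCre transgene. Eef1g encodes the gamma subunit of translation elongation factor eEF1, and the deletion takes out exons 2 to 7. The comparison asks how the transcripts of early meiotic cells differ when this factor is missing.

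Several features limit the groups as a model. Stra8-GFPCre acts from differentiating spermatogonia onward, so deletion precedes the sorted stage, and the cells were enriched by flow cytometry on Hoechst staining. Whether the 3 libraries of a genotype come from separate animals was not given in the sources used here, so p-values measure the spread between these libraries, which may be technical. Fewer cells of a type and less RNA per cell cannot be told apart in bulk RNA.

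Library totals ran from 763133 reads in Eef1g-cKO replicate 3 to 2617648 reads in Eef1g-cKO replicate 2, and a count of 3 reads corresponded to between 1.18 and 4.63 reads per 1000000 (counts per 1000000, CPM). Eef1g itself had between 212 and 226 CPM in the Control libraries and between 119 and 151 CPM in Eef1g-cKO, a log2 fold change equal to -0.68 (± 0.20, SE; adjusted p = 0.029 by edgeR), counted over the whole gene and not over the deleted exons alone. The call was lost without any 1 of the Control libraries or without Eef1g-cKO replicate 1 (log2 fold change -0.71 to -0.66). Of 14 tested leptotene/zygotene markers 8 rose and 1, Stra8, fell, and their summed level was 11226 to 12689 CPM in Control against 23270 to 29826 CPM in Eef1g-cKO. Of 8 tested spermatogonial markers 6 fell, and the summed level of that list was 851 to 1024 CPM against 345 to 385 CPM. The summed Sertoli cell markers stood at 156 to 481 CPM in the Control libraries and 26.3 to 90.6 CPM in Eef1g-cKO, with 3 of 5 tested markers lower, and the peritubular and stromal markers at 164 to 295 CPM and 23.2 to 74.1 CPM, with 3 of 4 lower. Summed pachytene and later markers were low, at 28.3 to 53.4 CPM in Control and 3.09 to 18.4 CPM in Eef1g-cKO. Of 2 tested, 1 was called lower, Piwil1, with 34, 22 and 30 reads in Control and 0, 1 and 0 in Eef1g-cKO. Leydig cell markers reached at most 10.7 CPM in any library, and of the blood cell markers 1 was tested and not called. Cyp17a1 and Hsd3b1 (Leydig cells), Acr and Adam3 (spermatids) and Cd68 and Csf1r (macrophages) had 0 reads in every library. The part of these differences in cell markers in the values below was not tested.

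In Control, the 40 tested genes spanned a wide range of levels per transcript length. Npm1, the nucleolar chaperone nucleophosmin, stood at 916 CPM per kilobase and ranked 42 among 8513 tested genes, whereas Mybbp1a, a nucleolar Myb-binding protein, stood at 2.99 CPM per kilobase and ranked 6928. The snoRNP protein gene Nop10 (159 CPM per kilobase), the processome gene Utp3 (111 CPM per kilobase) and the nucleolin gene Ncl (99.7 CPM per kilobase) followed Npm1. Over the 40 genes the median was 18.9 CPM per kilobase. Npm1 and Ncl together gave 46.2% to 49.8% of the list's summed CPM in the Control libraries and 50.1% to 55.5% in Eef1g-cKO.

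Between genotypes, 3 of the 40 tested genes rose in Eef1g-cKO and none fell by edgeR's quasi-likelihood test at an adjusted p under 0.05. The 3 were Nmd3, Ltv1 and Ddx21. Across all 8513 tested genes 7.80% were called higher and 6.01% lower, so the 3 higher calls (7.5% of the list) were at the background rate. With an added limit of 1 on the log2 fold change, 2 genes (Nmd3 and Ltv1) were called higher against a background of 3.42%, and 0 were called lower against 4.96%. At an unadjusted p under 0.05, 5 genes (12.5%) were higher and 6 (15%) were lower, against 14.3% and 13.2% of all tested genes. DESeq2 called 3 higher and 1 lower (Heatr1), against 8.63% and 7.19% of all genes, and limma-voom called 4 higher (Npm1 in addition) and 3 lower (Polr1b, Nhp2 and Nop10), against 10.8% and 8.07%.

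The median log2 fold change of the 40 genes was -0.21, against -0.05 over all tested genes, and 27 of the 40 values were negative. That gap of -0.16 was not stable, being -0.05 and -0.04 without Eef1g-cKO replicates 1 and 2, -0.26 without replicate 3 and 0.12 with no filter on low read numbers. The spread within the list ran from -1.91 to 1.25. For 14 of the 40 genes (35.0%) the 95% interval of the log2 fold change lay within 1 unit of zero, against 26.2% of all tested genes. For the other 26 the interval reached beyond that on at least 1 side.

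The 3 called genes act late in subunit assembly or in the nucleolus, and their upstream sequences are shown because these are the genes that passed the test. Each runs 5′ to 3′ on the strand of the gene, from RefSeq on GRCm38.p6, and starts 250 bases before the annotated start. It ends before the start or, for Ltv1 and Nmd3, before the gene as the count table places it. Capitals mark matches, on either strand, to the E-box CACGTG, the GC box GGGCGG or the ETS motif CCGGAAGT.
Nmd3 (chr3:69721805-69721984, plus strand): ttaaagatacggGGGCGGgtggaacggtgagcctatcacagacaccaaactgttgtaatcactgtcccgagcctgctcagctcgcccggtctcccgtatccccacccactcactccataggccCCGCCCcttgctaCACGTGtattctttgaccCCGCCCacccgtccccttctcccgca
Ltv1 (chr10:13193169-13193387, minus strand): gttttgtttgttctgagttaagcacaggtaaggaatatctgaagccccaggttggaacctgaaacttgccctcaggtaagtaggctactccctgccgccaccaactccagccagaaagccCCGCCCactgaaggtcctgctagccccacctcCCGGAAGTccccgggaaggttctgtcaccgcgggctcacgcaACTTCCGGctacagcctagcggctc
Ddx21 (chr10:62602299-62602548, minus strand): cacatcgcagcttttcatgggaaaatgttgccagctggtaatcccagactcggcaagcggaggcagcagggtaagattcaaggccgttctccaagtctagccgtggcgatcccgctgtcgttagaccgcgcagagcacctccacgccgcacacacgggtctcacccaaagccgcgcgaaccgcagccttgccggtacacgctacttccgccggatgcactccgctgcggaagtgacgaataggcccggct

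The Nmd3 stretch held 1 E-box and 3 GC boxes, the Ltv1 stretch 2 ETS motifs and 1 GC box, and the Ddx21 stretch no match. In Nmd3 the E-box lay at bases -114 to -109 from the start, between GC boxes at -127 to -122 and -96 to -91. In Ltv1 the ETS motifs lay at -98 to -91 and at -56 to -49. No motif was present in all 3 stretches.

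Over the whole list, 36 of the 41 genes had an entry in the promoter table, Rrs1, Bop1, Fbl, Rrp12 and Npm1 being the others, and the window of 250 bases before to 50 after each start was searched on both strands. The E-box occurred in 10 of 36 genes (27.8%), against 13.0% of the tested genes and 8.09% of all genes with an entry. The ETS motif occurred in 9 (25.0%), against 11.4% and 4.31%. The GC box was found in 26 (72.2%), against 72.6% of the tested genes, the TATA box TATAAA in 2 (5.56%) against 7.94%, and the YY1 motif AAGATGGC in 0 against 6.50%. Upstream of the start alone, the E-box was left in 3 genes (8.33%), Rrn3, Nop2 and Nmd3, against 11.03% of the tested genes. In the other 7 the match lay in, or reached into, the 50 bases after the start. The ETS motif was left upstream in 6 genes (16.7%), against 8.29% of the tested genes, and the GC box in 22 (61.1%), against 67.5%. A match is a stretch of letters and not a measured binding site.

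Nmd3 encodes the adaptor that carries the large subunit out of the nucleus, and the gene (ENSMUSG00000027787) lies at chr3:69721985-69756373 on the plus strand of GRCm38. Its level was 313, 301 and 268 CPM in Control replicates 1 to 3 and 669, 716 and 706 CPM in Eef1g-cKO replicates 1 to 3. Every Eef1g-cKO library was above every Control library, and the replicates lay close together in both groups. The level rose 2.37-fold (95% interval 1.89 to 2.98; log2 fold change 1.25 ± 0.16, SE; adjusted p = 4.2e-05 by edgeR), the largest rise among the tested genes of the list.

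Ltv1 encodes an assembly factor of the small subunit that leaves the particle late in its maturation, and the gene (ENSMUSG00000019814) lies at chr10:13178140-13193168 on the minus strand. Its level was 118, 167 and 120 CPM in the Control libraries and 299, 250 and 270 CPM in Eef1g-cKO. The lowest Eef1g-cKO library was well above the highest Control library. The rise was 2.02-fold (95% interval 1.497 to 2.726; log2 fold change 1.01 ± 0.21, SE; adjusted p = 0.0029 by edgeR).

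Ddx21 encodes a DEAD-box RNA helicase of the nucleolus that binds rRNA and snoRNAs, and the gene (ENSMUSG00000020075) lies at chr10:62580251-62602281 on the minus strand. Its level was 222, 228 and 214 CPM in the Control libraries and 353, 413 and 411 CPM in Eef1g-cKO. The Control libraries were nearly level, and all Eef1g-cKO libraries stood above them. The rise was 1.77-fold (95% interval 1.38 to 2.26; log2 fold change 0.82 ± 0.17, SE; adjusted p = 0.0031 by edgeR). Nmd3, Ltv1 and Ddx21 kept their calls in all 16 other fits that were run, with log2 fold changes from 0.98 to 1.31 for Nmd3, 0.82 to 1.21 for Ltv1 and 0.63 to 0.92 for Ddx21.

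**Figure D1:**
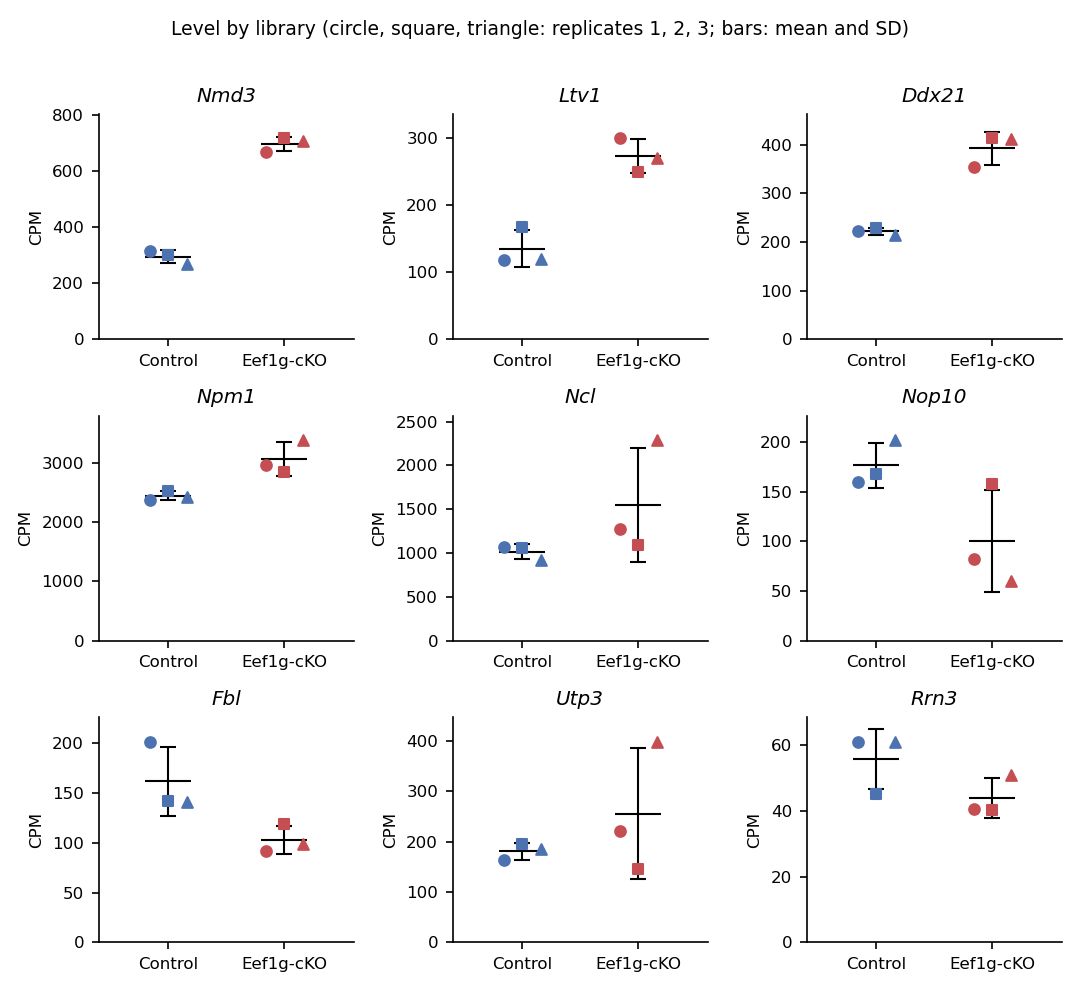
Level in TMM-scaled CPM (vertical axis, from 0) of 9 ribosome biogenesis genes in each library, with Control in blue and Eef1g-cKO in red. Points are libraries, with the black bars giving mean and SD of the 3 libraries, and Nmd3, Ltv1 and Ddx21 show separated groups with small spread whereas Ncl and Utp3 are raised mainly in Eef1g-cKO replicate 3.

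Among the nucleolar phosphoproteins, Npm1 and Ncl also had every Eef1g-cKO library above every Control library but did not pass the adjusted threshold. Npm1 passed it with limma-voom (log2 fold change 0.28), and Ncl passed it with no low-count filter (0.64) and without Eef1g-cKO replicate 2 (0.82). For Npm1 the Control libraries had 2374, 2523 and 2429 CPM and the Eef1g-cKO libraries 2966, 2844 and 3386 CPM. That is a log2 fold change equal to 0.33 (± 0.13, SE; adjusted p = 0.099 by edgeR), a small difference measured with small error. Ncl, which encodes the rRNA-binding protein nucleolin, had 1074, 1057 and 916 CPM in the Control libraries and 1270, 1088 and 2291 CPM in Eef1g-cKO, a log2 fold change equal to 0.60 (± 0.22, SE; adjusted p = 0.080 by edgeR). The Ncl mean rested largely on Eef1g-cKO replicate 3, since the lowest Eef1g-cKO library was only just above the highest Control library.

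The other genes of this group had values near zero. Gnl3, the nucleolar GTPase nucleostemin, had a log2 fold change of 0.02 (95% interval -0.38 to 0.42), but it overlaps a gene on the opposite strand that had 8123 reads against its own 2437, and without a stated strand setting the reads of both cannot be told apart. Nolc1, a chaperone of snoRNPs, had a log2 fold change of -0.14 (95% interval -0.86 to 0.58). Summed over all 41 genes the level reached 7203 ± 250 CPM in Control against 8698 ± 1333 CPM in Eef1g-cKO (mean ± SD of 3 libraries). Without Npm1 and Ncl it was 3746 ± 234 and 4083 ± 418 CPM, so most of the difference in the sum lay in these genes. The sum in Eef1g-cKO was 8007, 7852 and 10234 CPM, and without replicate 3 the difference of the means was 726 CPM in place of 1494 CPM.

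All 5 genes of RNA polymerase I transcription had negative log2 fold changes, with a median of -0.78, and none was called, Polr1a turning to 0.020 with a GC content offset and to 0.17 and 0.047 without Eef1g-cKO replicate 1 and replicate 2. The most abundant per length was Rrn3, the factor that brings the polymerase to the rRNA gene promoter, with 61.1, 45.1 and 61.0 CPM in the Control libraries and 40.4, 40.4 and 51.0 CPM in Eef1g-cKO. These groups overlapped (log2 fold change -0.36 ± 0.33, SE; adjusted p = 0.53 by edgeR). Ubtf, the factor that binds along active rRNA genes, had 75.6, 66.1 and 59.9 CPM against 24.3, 57.2 and 32.4 CPM, with no overlap between groups (log2 fold change -0.78 ± 0.36, SE; adjusted p = 0.16 by edgeR). Polr1b, a large catalytic subunit of the polymerase, had 16, 43 and 39 reads in Control and 2, 6 and 9 in Eef1g-cKO, a log2 fold change of -1.91 with a wide interval (-3.57 to -0.25; adjusted p by edgeR = 0.12). For Polr1a and Mybbp1a the intervals included zero, and Eef1g-cKO replicate 3 was above the Control mean for both while replicates 1 and 2 were below it.

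The box H/ACA snoRNP, which converts uridines of rRNA to pseudouridine, has 4 genes on the list, and their median log2 fold change was -0.66 with none called. Nop10, its most abundant gene per length, had 160, 167 and 202 CPM in the Control libraries and 82.5, 158 and 60.2 CPM in Eef1g-cKO. Eef1g-cKO replicate 2 came close to the lowest Control library, and the other replicates were far below (log2 fold change -0.77 ± 0.29, SE; adjusted p = 0.084 by edgeR). Nhp2, another core protein, showed the same order of Eef1g-cKO libraries, with 93.1, 87.7 and 81.2 CPM against 36.4, 73.7 and 21.6 CPM (log2 fold change -0.92 ± 0.36, SE; adjusted p = 0.10 by edgeR). Dkc1, the pseudouridine synthase, also had all Eef1g-cKO libraries below all Control libraries (log2 fold change -0.55 ± 0.29, SE; adjusted p = 0.23 by edgeR), whereas Gar1 had a log2 fold change of 0.30 (95% interval -0.48 to 1.09).

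The box C/D snoRNP methylates rRNA, and the median log2 fold change of its 3 genes was 0.10. Fbl, the methyltransferase fibrillarin, had 202, 142 and 141 CPM in the Control libraries and 91.4, 119 and 98.9 CPM in Eef1g-cKO. The groups did not overlap, and the difference missed the threshold (log2 fold change -0.64 ± 0.24, SE; adjusted p = 0.084 by edgeR). Its scaffold partners Nop56 and Nop58 had log2 fold changes of 0.21 (95% interval -0.37 to 0.79) and 0.10 (95% interval -0.44 to 0.63).

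The small subunit processome, the particle that forms on the front of the rRNA precursor, is represented by 9 tested genes with a median log2 fold change of -0.20. Utp3, the most abundant per length, had 163, 195 and 186 CPM in the Control libraries and 222, 146 and 399 CPM in Eef1g-cKO. The groups overlapped, with the lowest and the highest value of the 6 both in Eef1g-cKO (log2 fold change 0.47 ± 0.28, SE; adjusted p = 0.29 by edgeR). Heatr1, a scaffold that also promotes rRNA transcription, had 176, 126 and 114 CPM against 83.3, 77.6 and 92.7 CPM, with no overlap (log2 fold change -0.72 ± 0.25, SE; adjusted p = 0.066 by edgeR), the smallest adjusted p among the negative values. Wdr75 and Wdr43 had log2 fold changes of -0.20 and -0.04 with 95% intervals of -0.62 to 0.21 and -0.61 to 0.53. The remaining tested genes (Utp4, Utp14a, Utp15, Utp20 and Nop14) ran from -0.78 to 0.58, and each interval included zero.

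In late small subunit assembly, Ltv1 was the only one of 5 genes called (20%, on a single gene, against 7.80% of all tested genes called higher). Rrp12, an export factor, had a log2 fold change of 0.21 (95% interval -0.33 to 0.74), and Nob1, the endonuclease that trims the end of the small subunit rRNA, had -0.01 (95% interval -0.99 to 0.97). Bysl and Tsr1, further assembly factors, had few reads, from 2 to 32 per library for Bysl and from 2 to 22 for Tsr1, and their values of -1.40 and -1.22 had SEs of 0.78 and 0.93. Tsr1 had 78 reads over all libraries, fewer than the 89 of a gene that overlaps it.

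In large subunit assembly, 2 of 10 genes were called (Nmd3 and Ddx21), and the median log2 fold change was -0.20. These 2 calls were 20% of a short list, against 7.80% of all tested genes called higher. None of the 3 genes of the PeBoW complex, which acts in processing of the large subunit rRNA, was called in this fit. Pes1 had 51.9, 48.3 and 52.6 CPM in the Control libraries and 39.6, 48.2 and 47.9 CPM in Eef1g-cKO, values that did not overlap but nearly touched (log2 fold change -0.17 ± 0.33, SE; adjusted p = 0.79 by edgeR). Wdr12 had a log2 fold change of -0.33 (95% interval -0.90 to 0.24). Bop1 had 10, 28 and 8 reads in Control and 0, 19 and 0 in Eef1g-cKO, too few for a firm value (95% interval -3.65 to 0.71). A gene that overlaps Bop1 had 66 reads against its 65. Bop1 was called lower only without Eef1g-cKO replicate 2, which left it 0 reads in Eef1g-cKO. Of the others, Ebna1bp2 (-0.24), Rrp1 (-0.07), Rrs1 (0.42), Nop2 (-0.49) and Nop16 (-0.69) had log2 fold changes whose intervals all included zero.

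**Figure D2:**
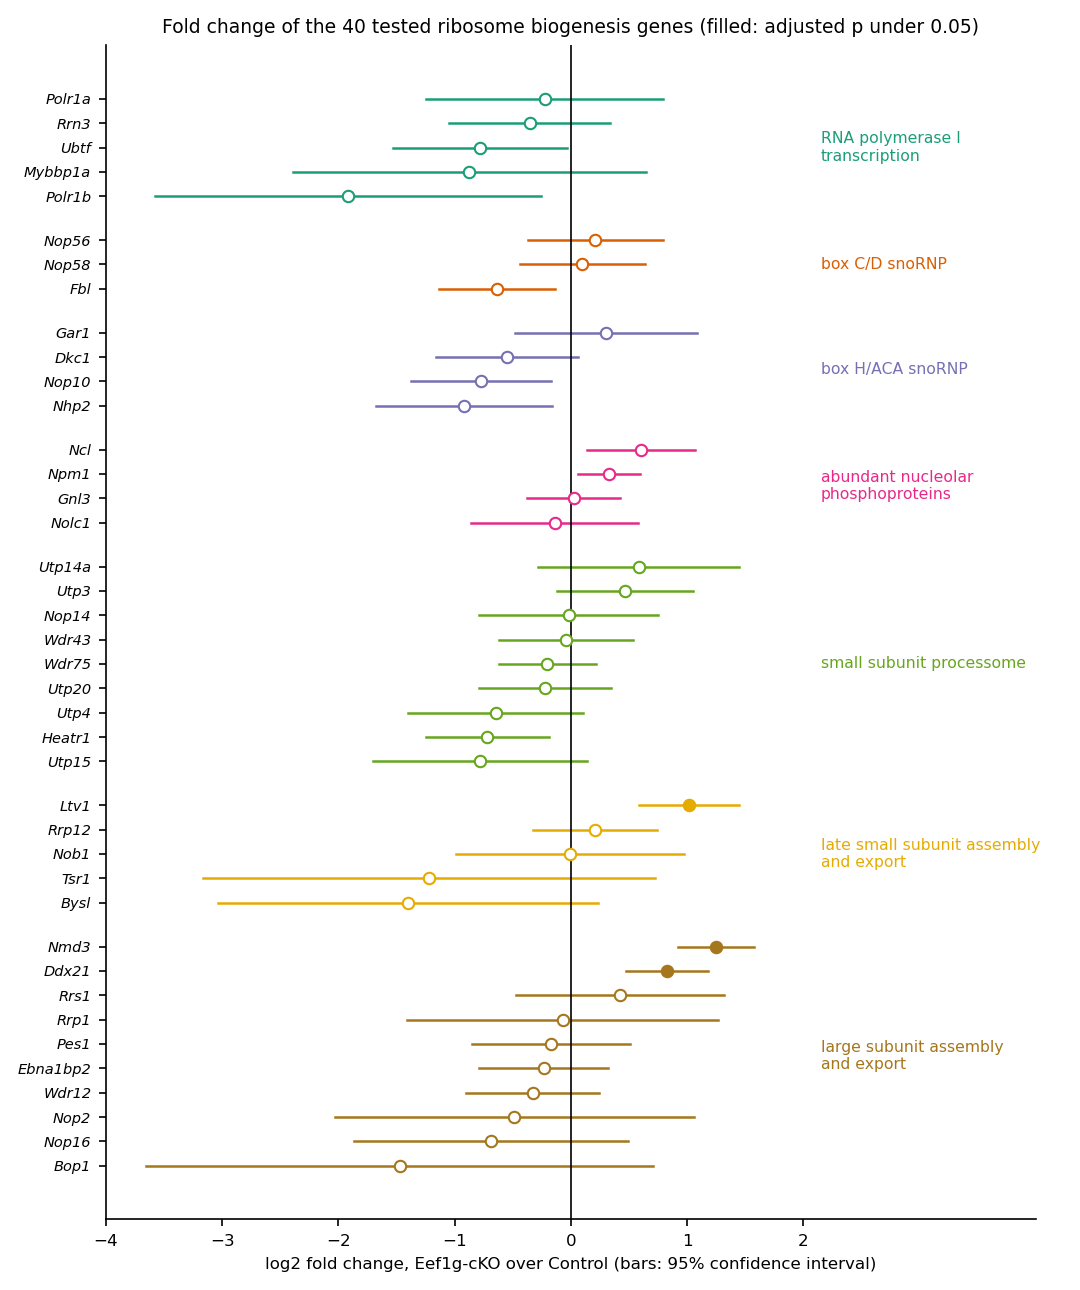
Log2 fold change (horizontal axis, Eef1g-cKO over Control) of the 40 tested genes, grouped and coloured by role, with lines for the 95% confidence interval and filled points for an adjusted p under 0.05. Nmd3, Ltv1 and Ddx21 are the filled points, all 5 RNA polymerase I genes lie left of zero in this fit (Polr1a at 0.020 with a GC content offset), and the widest intervals belong to Bop1, Tsr1 and Polr1b.

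Groups that do not overlap were counted over the whole list. In 5 genes (12.5%; Npm1, Ncl, Ltv1, Ddx21 and Nmd3) all Eef1g-cKO libraries were above all Control libraries, against 16.4% of all tested genes. In 7 genes (17.5%; Ubtf, Fbl, Dkc1, Nhp2, Nop10, Heatr1 and Pes1) they were below, against 18.1%. Both shares were near the background.

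The Eef1g-cKO libraries differed among themselves more than the Control libraries did. The SD of log2 CPM within a group had a median of 0.29 in Control and 0.49 in Eef1g-cKO over the 40 genes, and of 0.31 and 0.47 over all tested genes. For 29 of the 40 genes the SD was larger in Eef1g-cKO. In Eef1g-cKO replicates 1 and 2, 12 and 13 of the 40 genes were above their Control mean, and in replicate 3, the library with the fewest reads, 22 were. That replicate was the highest of the 6 libraries for 13 genes, such as Utp14a and Nop14, and the lowest for 9, such as Utp4 and Utp15.

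The number of genes called lower depended on these libraries. Without Eef1g-cKO replicate 2 there were 5 higher (Ncl and Utp3 in addition) and 5 lower (Ubtf, Nhp2, Nop10, Utp4 and Bop1), or 12.5% each way against 7.10% and 6.38% of all genes in that fit. Without Eef1g-cKO replicate 3 there were 3 higher and 3 lower (Polr1b, Heatr1 and Tsr1), or 7.5% each way against 8.57% and 6.86%. Without any of the other libraries it stayed at 3 higher (7.5% to 7.69% of the list) and 0 lower. Without a Control library the shares of all genes were 4.08% to 4.42% higher and 2.52% to 2.74% lower. Without Eef1g-cKO replicate 1 they were 5.53% and 4.49%. The number called lower also depended on scaling. Upper-quartile scaling gave 3 higher and 3 lower (Fbl, Nop10 and Heatr1), against 5.44% and 7.51% of all genes, and library totals alone gave 3 and 2 (Fbl and Heatr1), against 3.91% and 7.55%, while the split over all genes moved from 664 higher and 512 lower to 463 and 639 and to 333 and 643. These scalings moved the median of all genes to -0.17 and -0.24, and relative to it the median of the list stayed at -0.16 to -0.17.

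**Figure D3:**
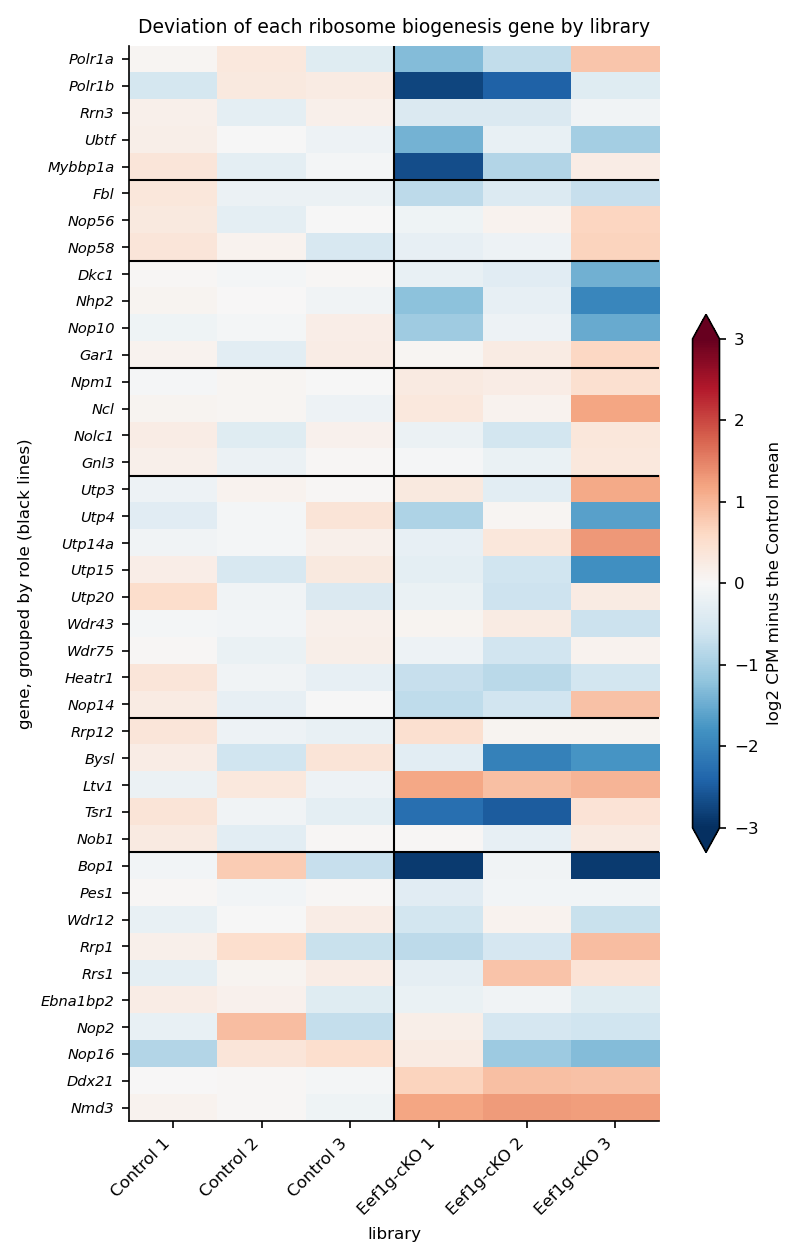
Heat map of log2 CPM minus the Control mean (colour, from -3 in blue to 3 in red) for each of the 40 tested genes (vertical) in each of the 6 libraries (horizontal), with black lines between roles. Nmd3, Ltv1 and Ddx21 are red in all 3 Eef1g-cKO libraries, and many other genes, such as Polr1a, Utp14a and Nop14, differ in colour between replicate 3 and replicate 1.

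The median fold change differed with read number, in direction over all genes and in size within the list. The median log2 fold change was -0.03 for the 22 genes that averaged 100 reads or more, against 0.22 over all 3134 such genes, and the 18 genes under 100 reads had -0.42, against -0.26 over the other 5379. The 3 calls were among the 22 (13.6%, against 18.6% called higher among all such genes). Across the 40 genes, log2 fold change and GC content had a Pearson r of -0.36 and a Spearman rho of -0.31, and across 8508 tested genes -0.25 and -0.28, the genes sharing the same libraries. With GC content as an offset, the median of the list was -0.11 and that of all genes 0.03. The gap between them was -0.13, against -0.16 in the main fit. The same 3 genes were called (7.5%, against 7.06% of all genes higher and 4.66% lower in that fit).

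**Figure D4:**
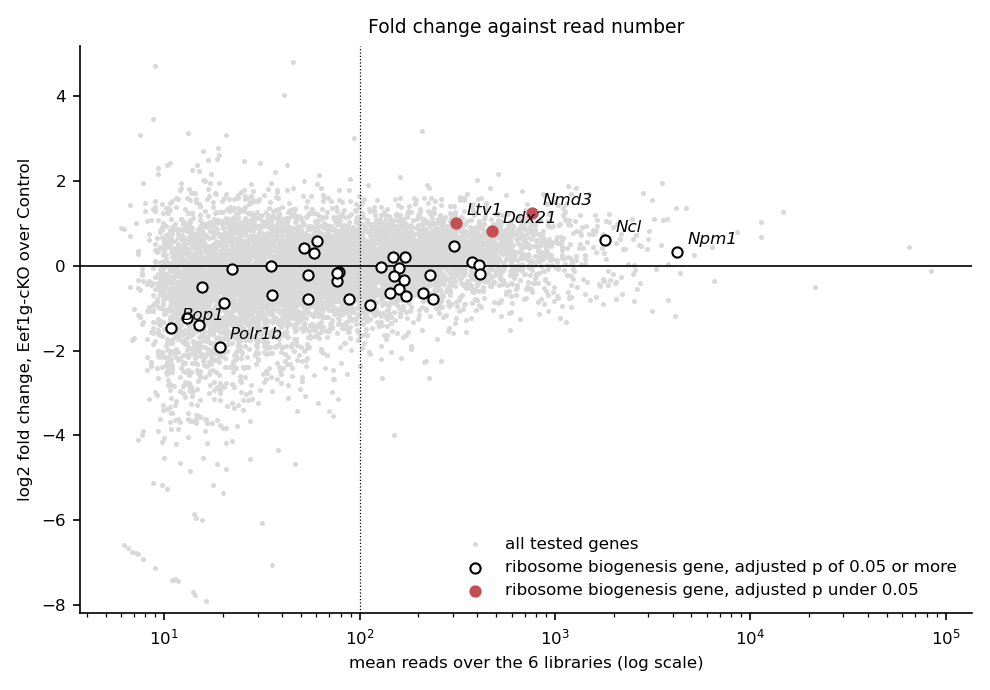
Log2 fold change (vertical axis) against mean reads over the 6 libraries (horizontal axis, log scale), with all 8513 tested genes in grey, called ribosome biogenesis genes in red and the others as open circles. The dotted line marks 100 reads, to the left of which 18 genes have a median of -0.42 and none is called.

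A further 136 genes of the pathway were examined as a list of their own, and 124 were tested. Of these, 3 rose and 3 fell (2.42% each way, against 7.80% and 6.01% of all tested genes), and the median log2 fold change was -0.16. The called genes in the small subunit processome were Esf1 (log2 fold change 0.91), Dcaf13 (0.79) and Emg1 (-1.20), the last an rRNA methyltransferase. Esf1 had 1002, 953 and 794 CPM in the Control libraries and 1604, 1613 and 1949 CPM in Eef1g-cKO (± 0.15, SE; adjusted p = 0.00046 by edgeR), the groups being well apart. Emg1 had 230, 233 and 221 CPM against 93.0, 114 and 88.0 CPM (± 0.21, SE; adjusted p = 0.00099 by edgeR), again with no overlap.

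The other called genes of that list were Exosc9, a subunit of the RNA exosome (log2 fold change 1.39, adjusted p by edgeR = 0.0082), Ftsj3, a methyltransferase of large subunit rRNA (-1.06, adjusted p by edgeR = 0.028), and Rpp40, a subunit of the RNases P and MRP (-1.89, adjusted p by edgeR = 0.028). Exosc9 had 593 reads in all and overlaps a gene on the opposite strand with 1748, so its reads cannot be told apart from that gene's. Rpp40 had between 2 and 38 reads per Eef1g-cKO library. Esf1 and Emg1 kept their calls in all 16 other fits. Leaving out a library ended the call of Exosc9 without Control replicate 1 (log2 fold change 1.24), of Ftsj3 without Control replicate 1 or 2 or Eef1g-cKO replicate 1 or 2 (-1.03 to -0.86), and of Rpp40 without Eef1g-cKO replicate 1 or any Control library (-2.03 to -1.64). Dcaf13 (0.55) and Ftsj3 (-0.86) missed the threshold with the GC content offset. For the 11 tested companions of RNA polymerase I transcription the median was -0.24 with none called, and for the 9 of snoRNP assembly it was -0.17 with none called.

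Many snoRNAs are cut from introns, and 7 of the 41 genes carry 21 annotated snoRNAs between them, among them Nop56 with 5, Nop58 with 4, and Ncl, Gnl3 and Wdr43 with 3 each. None of the 7 was called, and their median log2 fold change was 0.02. Of 17 long noncoding snoRNA host genes, 15 were in the table and 10 were tested. Snhg1 rose from 100, 118 and 112 CPM in Control to 311, 292 and 414 CPM in Eef1g-cKO (log2 fold change 1.62 ± 0.20, SE; adjusted p = 4.2e-05 by edgeR), and Gas5 rose from 115, 115 and 112 CPM to 277, 283 and 148 CPM (log2 fold change 1.06 ± 0.24, SE; adjusted p = 0.0058 by edgeR). Snhg4 fell from 25.2, 15.2 and 23.5 CPM to 3.23, 2.74 and 0 CPM (log2 fold change -3.16 ± 0.77, SE; adjusted p = 0.010 by edgeR), on 4, 7 and 0 reads in the Eef1g-cKO libraries, and missed the threshold without Control replicate 1 (-3.03) or Control replicate 3 (-3.10). Gas5 and Snhg1 kept their calls in all 16 other fits. A gene on the opposite strand of Gas5 had 459 reads against its 1731.

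Of 16 upstream regulators of rRNA synthesis, 12 were tested and none was called, against 7.80% of all tested genes higher and 6.01% lower. Mycn, a Myc family transcription factor, had 61.8, 63.5 and 78.4 CPM in the Control libraries and 42.0, 31.0 and 55.6 CPM in Eef1g-cKO, which did not overlap (log2 fold change -0.70 ± 0.33, SE; adjusted p = 0.18 by edgeR). Mga, a repressor that pairs with Max, had 443, 365 and 350 CPM against 543, 416 and 792 CPM, which overlapped (log2 fold change 0.59 ± 0.20, SE; adjusted p = 0.063 by edgeR). Without Eef1g-cKO replicate 2 Mga passed the threshold (0.80). Myc itself had too few reads to be tested.

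The cytosolic ribosomal protein genes, whose products the assembly factors place on rRNA, are given for comparison. Paralogs such as Rps27l and Rpl10l are included. Of 80 tested, 1 rose (Rps27l, 1.25% against 7.80% of all tested genes) and 33 fell (41.2%, against 6.01%). The median log2 fold change was -0.54. The ribosome biogenesis genes had 3 higher, 0 lower and -0.21 in the same fit. The ribosomal protein genes were measured more precisely, with a median Control level of 488 CPM and a median SE of 0.18. For the ribosome biogenesis genes these were 91.5 CPM and 0.33, so the numbers of calls are not directly comparable. The median of the ribosomal proteins was -0.32 with the GC content offset, -0.33 with that offset and the replicate number as a block, and -0.72 with library totals alone. The medians over all genes in these fits were 0.03, -0.01 and -0.24. Whether both lists differ from each other was not tested.

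**Figure D5:**
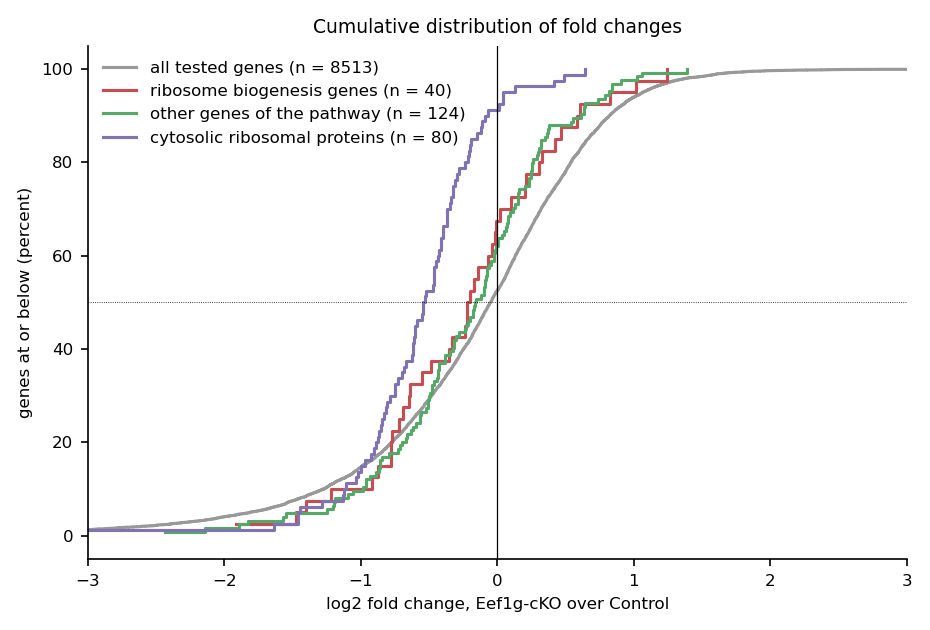
Cumulative share of genes (vertical axis, percent) at or below each log2 fold change (horizontal axis) for all 8513 tested genes, the 40 ribosome biogenesis genes, 124 other genes of the pathway and 80 cytosolic ribosomal proteins. The curves of the 40 and the 124 genes lie close together with medians of -0.21 and -0.16, and that of the ribosomal proteins lies to the left with a median of -0.54.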

How the data were processed

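The deposited table holds raw read counts per gene in 6 libraries (3 Control, 3 Eef1g-cKO), with no column left out. According to the methods and the submitters' processing notes, full-length cDNA was amplified without molecular identifiers, reads were cleaned with fastp and aligned to GRCm38 with HISAT2, and the authors counted reads per gene with featureCounts. Strand setting, treatment of multi-mapping reads and annotation release were not given in the sources used here. The 95% intervals come from the edgeR fit and include the spread between libraries, and the 3-read limits cover counting error only.

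Counts were analysed with edgeR 4.0.16 in R 4.3.3 as deposited: filterByExpr (minimum count 10, minimum total 15), TMM scaling and the robust quasi-likelihood F test of genotype over all 6 libraries, with Benjamini-Hochberg adjustment over 8513 genes. CPM are per 1000000 TMM-scaled reads in tested genes, and CPM per kilobase divide by the deposited gene length. Log2 deviations used a prior count of 2. Every gene of the list may be named. Values by library are given for called genes and for the most abundant gene per length in each of 7 roles, and of the 136 further pathway genes the 3 largest called changes in each direction are named. Gene values outside this rule were chosen after their values were seen. Members and lists were chosen with earlier results of these data known. The alternatives were other scalings and filters, DESeq2 1.42.0, limma 3.58.1 (voom), a replicate block, leaving out each library, and, chosen after seeing the data, a GC content offset. No 2 libraries agreed within sampling noise (lowest chi-square per degree of freedom 6.37). Scripts were tested on simulated data. Promoter sequences and starts came from RefSeq (GRCm38.p6).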

Additional observations from a re-analysis of the deposited data

How the results depend on the processing

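Nmd3, Ltv1 and Ddx21 kept their direction and their call in all 16 other fits. The number of listed genes called lower, 0 in edgeR with TMM, was 4 when every library had to hold at least 10 reads (4 of 32, against 401 of all 5567 genes in that fit), 3 under upper-quartile scaling, 2 under library totals, 1 with DESeq2 and 3 with limma-voom, the last 4 fits having all-gene shares of 7.19% to 8.07%. The number called higher was 4 with limma-voom (Npm1 added) and 4 with no filter (Ncl added, 9.76% against 3.23%), and 3 in the other fits to all 6 libraries. Leaving out 1 library gave 3 to 5 higher and 0 to 5 lower, with the departures listed for Eef1g-cKO replicates 2 and 3. In those fits 4.08% to 8.57% of all genes were higher and 2.52% to 6.86% were lower. The median of the list moved to -0.41 with library totals alone and ranged from -0.33 to -0.11 without 1 library. Of the 124 other pathway genes tested, 5 were higher with DESeq2, 6 with limma-voom and 1 with the fold limit. The shares of all genes called higher there were 8.63%, 10.8% and 3.42%. When at least 10 reads were required, fewer than 124 of these genes were tested and 5 were lower, against 401 of all 5567 genes. Of the 124, 6 were lower with library totals, 9 with limma-voom and 5 with upper-quartile scaling. The shares of all genes called lower there were 7.55%, 8.07% and 7.51%. Without 1 library that list had 3 to 5 higher and 1 to 6 lower (1 without Control replicate 1, Control replicate 2 or Eef1g-cKO replicate 1, and 6 without Eef1g-cKO replicate 3). Its median moved to -0.34 with library totals and -0.29 with upper-quartile scaling. The cause of these changes was not tested.

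Libraries with the same replicate number did not deviate together (correlations of deviations -0.04, 0.02 and -0.05). With the replicate block, 3 listed genes (7.5%) were higher and 0 lower, against 5.83% and 4.43% of all genes in that fit. In the same fit 1 other pathway gene was lower. Eef1g missed the threshold with the block (-0.69), with the GC content offset (-0.42), with both (-0.43) and with no filter (-0.64), and without 1 library it ranged from -0.75 to -0.56, missing the threshold in 4 of 6 cases.

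A total of 11 listed genes changed sign in some fit, in no case with an adjusted p under 0.05. With at least 10 reads required, Gnl3 was -0.12 and Nop58 -0.053. With library totals they were -0.18 and -0.11, with upper-quartile scaling -0.10 and -0.029. With limma-voom Gnl3 was -0.019, Nop58 -0.053, Nob1 0.013 and Wdr43 0.048, and with no filter Nob1 was 0.032, Nop14 0.011 and Wdr43 0.0059. With the block Nob1 was 0.010. The GC content offset gave 0.30 for Nob1, 0.12 for Nolc1, 0.12 for Nop14, -0.098 for Nop58, 0.040 for Pes1, 0.020 for Polr1a and 0.37 for Rrp1, and with the block added 0.31 for Nob1, 0.11 for Nolc1, -0.12 for Nop58, 0.041 for Pes1 and 0.24 for Rrp1. Without 1 library the values ranged from -0.10 to 0.15 for Gnl3, -0.15 to 0.16 for Nob1, -0.36 to 0.086 for Nolc1, -0.64 to 0.29 for Nop14, -0.81 to 0.22 for Nop2, -0.20 to 0.31 for Nop58, -1.003 to 0.17 for Polr1a, -0.73 to 0.26 for Rrp1, -0.42 to 0.11 for Utp20 and -0.21 to 0.20 for Wdr43.

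With the lowest library at 763133 reads and 18 of the 40 genes under a mean of 100 reads, moderate differences of the rarer genes could not be detected.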
